A study of Mus musculus with 28 samples.

Results

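Early mesoderm cells that carry the code EOi in the deposited annotation were chosen by that annotation alone, and numbered 5266 of 31596 annotated cells in 14 libraries. Libraries were made with the 10x Genomics multiome kit, with RNA and open chromatin measured in each nucleus, from mouse embryoid bodies (EBs), which are aggregates of differentiating embryonic stem cells. All groups used the same Runx1-Venus, Eomes-mCherry-degron stem cell line, in which a degron tag on EOMES lets the small molecule dTAG-13 remove the protein, and all received VEGF, BMP4 and Activin A. Eomes-KD EBs were given 100 nM dTAG-13 from day 3 and were collected at day 3.5 (2 libraries), day 4 (2), day 4.5 (1) and day 5 (1). Per the study's methods dTAG-13 was removed at day 4, before the collections of days 4.5 and 5. WT EBs carried the same tagged allele and were given DMSO, with libraries at day 3.5 (2), day 4 (2), day 4.5 (1) and day 5 (1), and 2 further WT libraries (1A and 1B) were collected at day 3. Libraries belonged to 2 experiments, exp1 and exp2, and every Eomes-KD library had a WT library of the same day and experiment. Nothing in the labels separates cultures within an experiment, so p-values measure the spread between these libraries.

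Early mesoderm forms when cells leave the primitive streak, the structure through which epiblast cells pass during gastrulation. Eomes encodes a T-box protein of the streak and of nascent mesoderm and acts upstream of Mesp1, a regulator of early mesoderm. Early mesoderm of the posterior streak supplies extraembryonic tissues, among them the blood islands of the yolk sac and the allantois, which becomes part of the umbilical cord.

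The table held a second early mesoderm code, EOd (5745 cells), and the sources used here do not explain either code. No gene values were analysed here, so the markers Mesp1, T and Pdgfra could not be read, nor could the loss of EOMES. Per the study's methods, intracellular flow cytometry in the same experiments showed EOMES protein depleted after dTAG-13 was added. The EOi label was checked only against cell type labels that the authors transferred from a mouse gastrulation atlas. Nascent mesoderm, mixed mesoderm and primitive streak labels covered 4661 of the 5266 EOi cells (88.5%, 95% Wilson interval 87.6 to 89.3). Epiblast, blood, endothelium and allantois labels were given to 0 of 5266 cells each, hematoendothelial progenitor labels to 6 cells and mesenchyme labels to 4. Intervals cover counting error only. The libraries held 445 to 7391 annotated cells, with total RNA counts from 7262460 to 70753971. Of the EOi cells, 181 (3.44%) had a cell barcode that also occurs in another library.

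EOi cells were the most frequent type in Eomes-KD EBs of day 3.5 and a less frequent one in WT EBs. At day 3.5, 1253 of 1875 Eomes-KD cells of exp1 (66.8%, interval 64.7 to 68.9) and 1982 of 2663 of exp2 (74.4%, interval 72.7 to 76.05) were EOi, against 313 of 2443 WT cells of exp1 (12.8%, interval 11.5 to 14.2) and 1302 of 7391 of exp2 (17.6%, interval 16.8 to 18.5). The Eomes-KD share was thus 5.22-fold that of WT in exp1 and 4.22-fold in exp2. By day 4 the type was rare in both conditions, at 62 of 1453 cells (4.27%) and 205 of 2966 cells (6.91%) in Eomes-KD exp1 and exp2, and 17 of 1443 cells (1.18%) and 74 of 2818 cells (2.63%) in WT exp1 and exp2, or 3.62-fold and 2.63-fold higher in Eomes-KD. The groups did not overlap on either day, and exp2 lay above exp1 in Eomes-KD and in WT on both. At day 4.5 there were 10 EOi cells among 1722 in Eomes-KD (0.581%) and 0 of 445 in WT, which allows a share of up to 0.674%. At day 5 there was 1 of 1177 in Eomes-KD and 0 of 739 in WT, which allows up to 0.406%. A difference was therefore not detectable at the depth of these last libraries, and no fold is given.

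**Figure D1:**
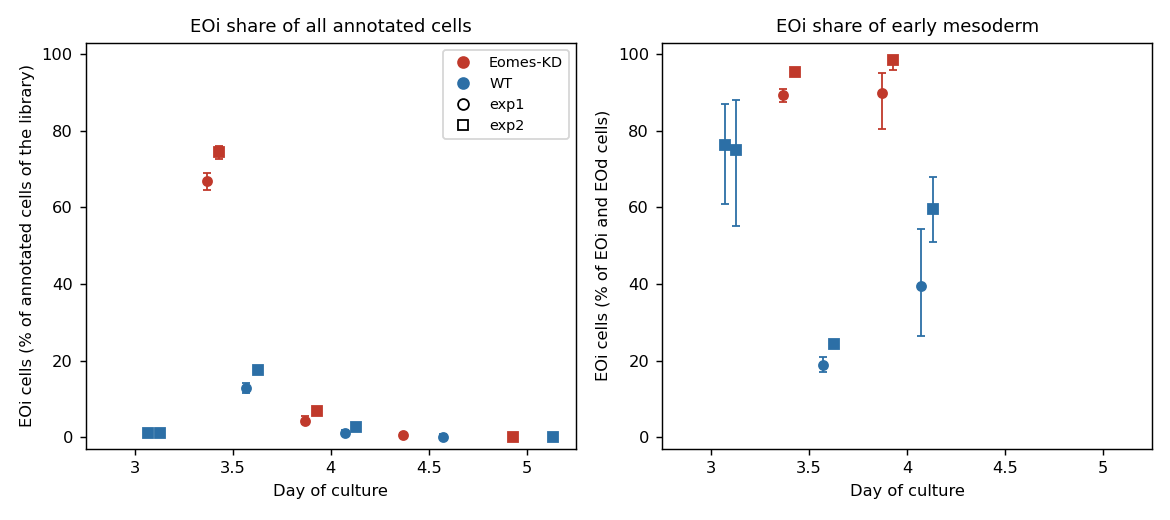
Share of EOi cells by library, with the day of culture on the x axis. The left panel gives EOi cells as a percent of all annotated cells, and the right panel as a percent of EOi and EOd cells together, for libraries with 20 or more early mesoderm cells; each point is a library, circles are exp1, squares exp2, and bars are 95% Wilson intervals. At day 3.5 the Eomes-KD libraries lie at 66.8% and 74.4% in the left panel, and the WT libraries at 12.8% and 17.6%.

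Over days 3.5 to 5, edgeR's quasi-likelihood test on cells per type and library, with day as a term, gave a log2 change of 1.98 for EOi (SE 0.46, adjusted p = 0.00063, higher in Eomes-KD in the 4 pairs of the same day and experiment at days 3.5 and 4, the WT count being 0 in the other two). The same test called 66.7% of the 12 cell types in one direction or the other, 25% as higher. The change depended on the cells it was counted against. With EOd, hematoendothelial (HE) precursors, HE and blood progenitors left out of the total, EOi made up 76.2% and 78.1% of the remaining Eomes-KD cells of day 3.5, against 47.3% and 55.7% of the remaining WT cells, and the log2 change over days was 0.89 (SE 0.45, adjusted p = 0.149, edgeR), which misses the threshold of 0.05. With limma on arcsine square root shares the adjusted p was 0.0661. Tested by day and adjusted over all 42 tests of types and days, of which 9.52% were called (4.76% as higher and 4.76% as lower), the EOi difference was 2.21 at day 3.5 (SE 0.56, adjusted p = 0.0560, edgeR) and 1.54 at day 4 (SE 0.56, adjusted p = 0.113), so neither passed the threshold. The day 4 change ran from 1.09 to 2.25 with a library left out, 2.25 being without WT day 4 replicate 2 (adjusted p = 0.126, edgeR). With the experiment as a replicate block both did (adjusted p = 0.00176 and 0.0209, edgeR), and day 3.5 also did with p-values adjusted within each day (0.0178), which was tried after seeing the data. The block raised the calls over all types and days to 16 of 42, against 4 of 42 without it. An interaction of day and condition was not detected for EOi (edgeR, adjusted p = 0.996).

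In WT EBs the type peaked at day 3.5. At day 3, before or at the start of treatment, 29 of 2781 cells (1.04%, interval 0.727 to 1.49) of library 1A and 18 of 1680 cells (1.07%, interval 0.679 to 1.69) of library 1B were EOi. The WT share was higher at day 3.5 than at day 3 (log2 change 3.85, SE 0.47, adjusted p = 0.00268, edgeR) and lower at day 4 than at day 3.5 (-2.94, SE 0.44, adjusted p = 0.00422), in a test over WT days that called 58.5% of 41 comparisons (34.1% as higher). The day 3 libraries, both of exp2, agreed within sampling noise in cell types (chi-square of 0.0436, 2 degrees of freedom) but not in clusters (chi-square of 24.9, 4 degrees of freedom), and were kept as 2 samples. With their sum as 1 sample both steps still passed the threshold, as they did with each library left out, where the later step ran from -3.69 (without WT day 4 replicate 2) to -2.54.

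The makeup of early mesoderm itself differed between the conditions. EOi cells were 89.3% and 95.3% of EOi and EOd cells in Eomes-KD exp1 and exp2 at day 3.5, against 18.9% and 24.3% in WT. At day 4 they were 89.9% and 98.6% in Eomes-KD and 39.5% and 59.7% in WT, where EOi and EOd cells together numbered 43 (exp1) and 124 (exp2). At day 3 the few early mesoderm cells present in WT were mostly EOi (76.3% and 75% of 38 and 24 cells). The Eomes-KD libraries lay above all WT libraries of the same day, by 57.7 percentage points on average over both days (two-sided exact permutation test within days, p = 0.0556, the smallest p that 8 libraries allow in this design). EOi and EOd were separated by clustering cells of both conditions together, so fewer EOd cells and EOd cells whose profile moved towards EOi cannot be told apart.

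Nascent mesoderm, the atlas label most frequent among EOi cells, was common in both conditions at day 3.5 but sat in different types. It was given to 44.5% and 40.9% of all Eomes-KD cells (exp1 and exp2) and to 50.2% and 57.6% of all WT cells. In Eomes-KD, 81.8% and 89.2% of the cells with this label were EOi and 16.3% and 6.89% were EOd. In WT, 10.6% and 21.2% were EOi and 84.4% and 70.1% were EOd.

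EOi consisted of cells of 3 clusters of the authors' joint map of RNA and chromatin (MOFA clusters), numbered 6 (1500 cells), 8 (1885) and 9 (1881). Cluster 6 lay nearest to primitive streak on the UMAP, with a median at -3.12 and -1.12, cluster 8 in between at -2.37 and -0.59, and cluster 9 farthest from it at -0.77 and 0.33. The clusters also differed in atlas labels, given here over all libraries together. Primitive streak labels were 21.3% of cluster 6, 3.29% of cluster 8 and 0.266% of cluster 9, and mixed mesoderm labels were 18.1%, 17.2% and 49.97%. Nascent mesoderm labels peaked in cluster 8 (74.3%, against 47.6% in cluster 6 and 33.2% in cluster 9). Cluster 8 had the highest nascent mesoderm share in each library of day 3.5, but cluster 6 varied among them, with 29.6% and 39.2% in Eomes-KD exp1 and exp2 and 25.5% and 67.7% in WT, and lay below cluster 9 in exp1 of both conditions (41.2% in Eomes-KD and 30.8% in WT). Its primitive streak share was 44.3% and 28.0% in Eomes-KD and 24.5% and 6.33% in WT on that day. Labels of extraembryonic (ExE) mesoderm, which in the embryo lies outside the body proper, were mainly in cluster 9 (12.3%, against 1.33% and 0.531%), and surface ectoderm labels in cluster 6 (9.67%, against 0.424% and 0.106%). Of the 47 EOi cells of day 3, 46 were in cluster 6.

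Cluster 9 stood out in Eomes-KD at day 3.5. It held 46.4% and 42.5% of the Eomes-KD EOi cells of exp1 and exp2, against 20.8% and 14.1% of the WT EOi cells. Cluster 6 held 16.2% and 23.1% in Eomes-KD and 32.6% and 48.5% in WT, and cluster 8 held 37.4% and 34.5% in Eomes-KD and 46.6% and 37.3% in WT. Eomes-KD and WT libraries of this day did not overlap for clusters 9 and 6, and did for cluster 8. Counted against all cells of the library, each of the clusters was larger in Eomes-KD: cluster 6 by 2.59-fold (exp1) and 2.01-fold (exp2), cluster 8 by 4.18-fold and 3.90-fold, and cluster 9 by 11.7-fold and 12.7-fold. At day 4 in exp2, cluster 9 held 61.5% of 205 Eomes-KD and 59.5% of 74 WT EOi cells, cluster 6 held 12.7% in Eomes-KD and 23.0% in WT, and cluster 8 held 25.9% in Eomes-KD and 17.6% in WT. In exp1 cluster 9 held 48.4% of 62 EOi cells in Eomes-KD and 4 of 17 in WT, and cluster 6 held 12.9% in Eomes-KD and 4 of 17 in WT.

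**Figure D2:**
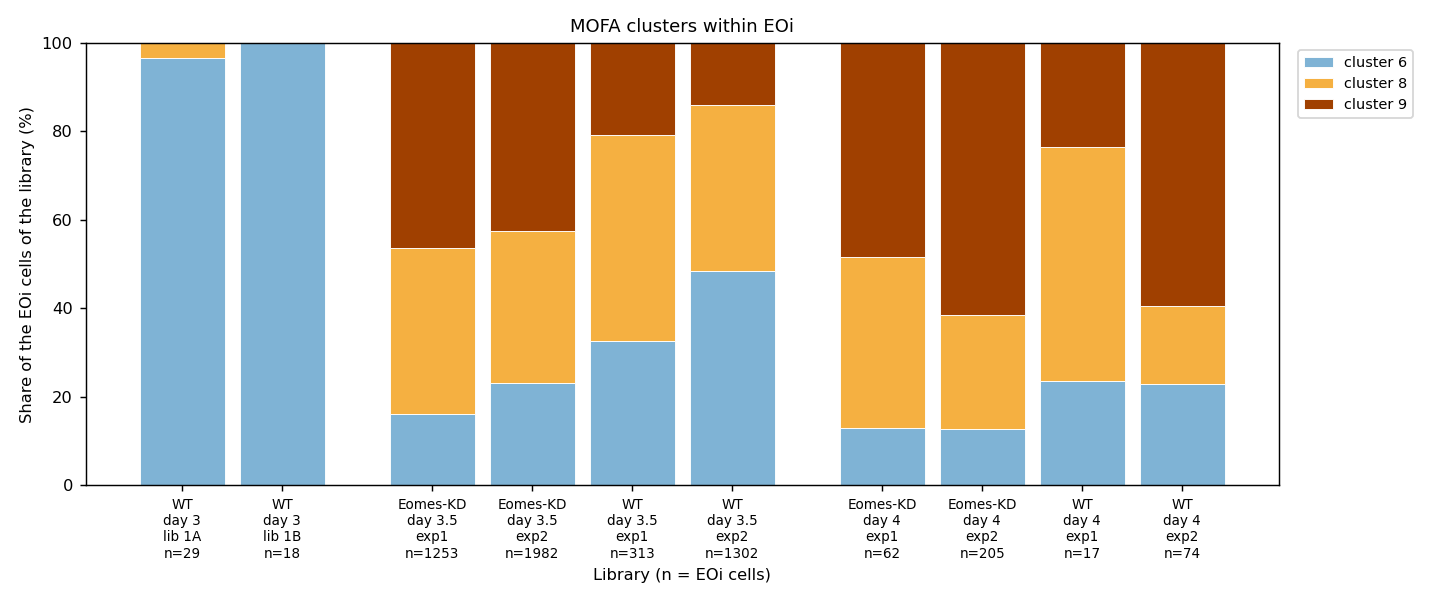
MOFA clusters of EOi cells in the libraries of days 3 to 4, as a percent of the EOi cells of each library, with the number of EOi cells under each bar. At day 3.5 cluster 9 makes up 46.4% and 42.5% of the Eomes-KD bars and 20.8% and 14.1% of the WT bars, whereas at day 4 in exp2 it makes up 61.5% and 59.5%.

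In the 7 libraries of days 3.5 and 4 with 20 or more EOi cells (WT day 4 exp1, with 17, is left out), edgeR's quasi-likelihood test with day as a term gave a log2 change in share of EOi cells of -1.0 for cluster 6 (SE 0.33, adjusted p = 0.0292), 0.84 for cluster 9 (SE 0.31, adjusted p = 0.0302) and 0.05 for cluster 8 (SE 0.32, adjusted p = 0.868), so that 66.7% of the 3 clusters were called. The 3 shares add up to the whole and are not independent. Both calls were lost without Eomes-KD day 3.5 replicate 1 (adjusted p = 0.127 for both, edgeR), Eomes-KD day 3.5 replicate 2 (0.0721 for cluster 6 and 0.109 for cluster 9), WT day 3.5 replicate 2 (0.151 and 0.203) or Eomes-KD day 4 replicate 2 (0.0667 for both), and in the more deeply read cells, those above their library's median RNA count (0.0801 and 0.166). The log2 changes ran from -1.15 to -0.77 for cluster 6 and from 0.54 to 1.39 for cluster 9 with a library left out, 1.39 being without WT day 4 replicate 2, and were -1.26 and 0.82 in the more deeply read cells. The call of cluster 9 was also lost without WT day 3.5 replicate 1 (0.110) and with the experiment as a replicate block (0.0673 at an unmoved log2 change of 0.84, where cluster 6 had an adjusted p of 0.0137). In the day 3.5 libraries alone, a choice made after seeing the data, the log2 changes were -1.06 and 1.39 (adjusted p = 0.0147 and 0.0101, edgeR).

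Primordial germ cells (PGCs), the precursors of eggs and sperm, were set apart by the authors from the same 3 clusters: 555 of 684 PGCs (81.1%, interval 78.04 to 83.9) came from them, 479 from cluster 6. At day 3.5 PGCs were 3.54% and 5.39% of the cells of these clusters in Eomes-KD exp1 and exp2, against 17.4% and 9.65% in WT, and at day 4 they were 24.4% and 24.4% in Eomes-KD and 55.3% and 37.8% in WT. As a share of all cells of the library, PGCs were 2.56% and 4.32% in Eomes-KD and 2.87% and 2.10% in WT at day 3.5, so that the experiments went opposite ways. At day 4 this share was 2.13% and 3.64% in Eomes-KD and 1.80% and 2.98% in WT, so not lower in Eomes-KD in either experiment. Over days it had a log2 change of 0.26 (SE 0.40, adjusted p = 0.528, edgeR). With PGCs put back into EOi, which was tried after seeing the data, the EOi change over days was 1.28 on the log2 scale (adjusted p = 0.0212, edgeR) in place of 1.98. The day 5 pair was then lower in Eomes-KD, with 8 of 1177 cells against 11 of 739 in WT, and the other pairs stayed higher.

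Atlas labels of EOi cells shifted with the day in both conditions. At day 3, 29 of 47 EOi cells had the primitive streak label (61.7%, interval 47.4 to 74.2) and 17 the nascent mesoderm label. At day 3.5 nascent mesoderm was the most frequent label, with 54.5% and 48.9% of EOi cells in Eomes-KD exp1 and exp2 and 41.5% and 69.4% in WT. At day 4 it was down to 17.7% and 5.85% in Eomes-KD and 6.76% in WT exp2. The mixed mesoderm label was given to 32.3% and 31.4% in Eomes-KD and 31.3% and 21.5% in WT at day 3.5, and to 43.5% and 30.7% in Eomes-KD and 40.5% in WT exp2 at day 4. ExE mesoderm was given to 1.20% and 5.35% in Eomes-KD and 3.19% and 1.23% in WT at day 3.5, and to 24.2% and 33.2% in Eomes-KD and 37.8% in WT exp2 at day 4. The 17 EOi cells of WT day 4 exp1 stood apart from WT exp2, with 6 nascent mesoderm labels and 1 ExE mesoderm label. Primitive streak labels were 9.10% and 7.82% in Eomes-KD and 11.5% and 3.46% in WT at day 3.5, and at most 2.70% at day 4 in the libraries with 20 or more EOi cells.

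Labels of intermediate mesoderm, which forms the urogenital system, and of surface ectoderm, a tissue outside the mesoderm, varied between libraries of one condition. Intermediate mesoderm was given to 25.4% of EOi cells (52 of 205) in Eomes-KD day 4 exp2 and 9.68% (6 of 62) in exp1, against 4.05% (3 of 74) in WT day 4 exp2. Surface ectoderm was given to 2.71% and 2.42% in Eomes-KD and 10.5% and 2.15% in WT at day 3.5, the highest value being that of WT exp1. The remaining 8 atlas labels together covered 42 EOi cells (0.798%).

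**Figure D3:**
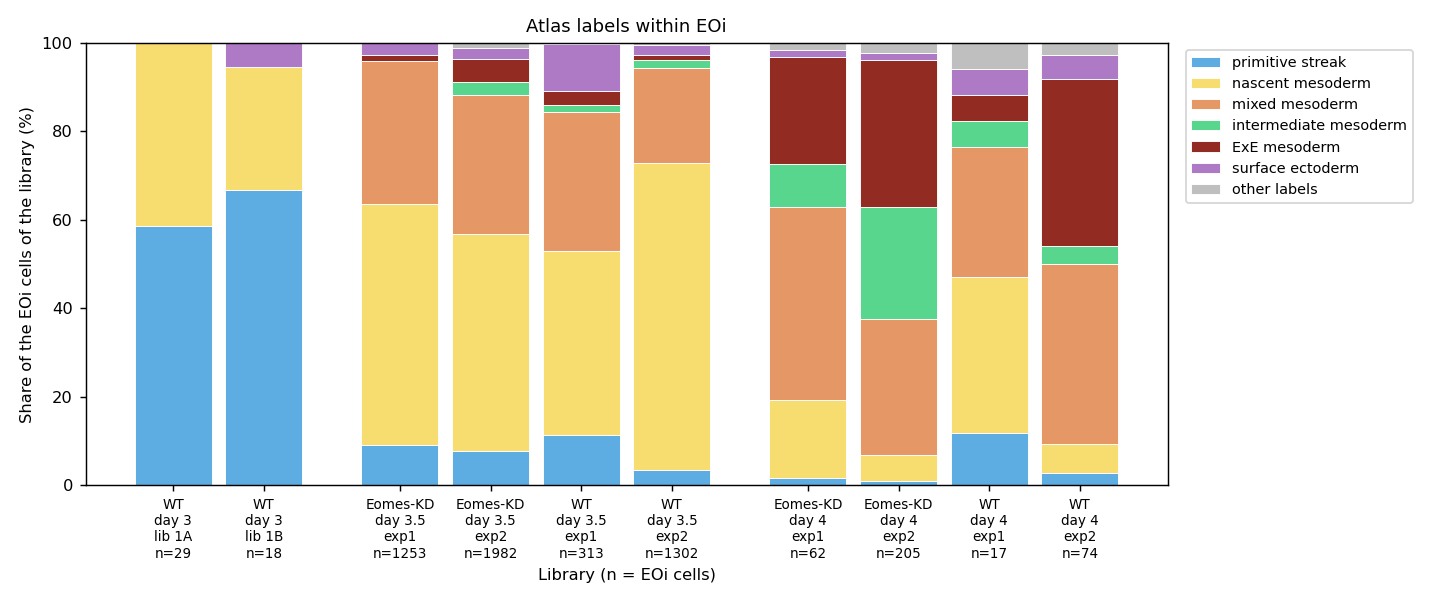
Atlas labels of EOi cells in the libraries of days 3 to 4, as a percent of the EOi cells of each library, with the number of EOi cells under each bar. Primitive streak labels lead at day 3 and nascent mesoderm labels at day 3.5 in both conditions, and the WT libraries of day 3.5 differ among themselves, with 41.5% and 69.4% nascent mesoderm.

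No atlas label passed the test between the conditions. Of the 7 labels tested, edgeR called 0% (0 at unadjusted p under 0.05, and 0 by DESeq2). The lowest p was that of surface ectoderm, with a log2 change of -1.42 (SE 0.68, adjusted p = 0.516, edgeR), and this label alone was called without WT day 3.5 replicate 2 (-1.95, adjusted p = 0.0033). Without WT day 3.5 replicate 1 its log2 change was -0.62 (adjusted p = 0.920, edgeR). Nascent mesoderm had a log2 change of 0.17 (SE 0.58), mixed mesoderm 0.11 (SE 0.44), primitive streak -0.12 (SE 0.66), ExE mesoderm 0.20 (SE 0.68) and intermediate mesoderm 0.55 (SE 1.32), all with an adjusted p of 0.865.

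The second, extended set of atlas labels, which splits mesoderm more finely, was called in 0% of 10 labels (edgeR, 0 at unadjusted p under 0.05, and 0 by DESeq2). Nascent mesoderm was again the leading label at day 3.5, with 77.7% and 64.7% of EOi cells in Eomes-KD and 65.2% and 84.2% in WT. Lateral plate mesoderm, the source of body wall and heart tissue, had 8.78% and 14.03% in Eomes-KD and 7.67% and 3.53% in WT at day 3.5, and 40.3% and 39.02% in Eomes-KD and 56.8% in WT exp2 at day 4. Intermediate mesoderm had 37.6% (77 of 205) in Eomes-KD day 4 exp2, but 3.23% (2 of 62) in exp1 and 4.05% (3 of 74) in WT exp2. Primitive streak had 9.50% and 8.12% in Eomes-KD and 11.8% and 3.46% in WT at day 3.5. Non-neural ectoderm reached 9.90% in WT day 3.5 exp1 and paraxial mesoderm, the source of somites, 6.45% in Eomes-KD day 4 exp1. The other 8 extended labels covered 129 cells (2.45%), among them 33 cells labelled as PGCs.

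Atlas stages of EOi cells were later at day 4 than at day 3.5 in both Eomes-KD experiments and in WT exp2. E7.25 was the stage of 3521 EOi cells (66.9%), E7.0 of 826 and E7.5 of 725. The mean stage of EOi cells at day 3.5 was embryonic day 7.20 and 7.30 in Eomes-KD exp1 and exp2, against 7.19 and 7.25 in WT, and at day 4 it was 7.43 and 7.58 in Eomes-KD and 7.39 in WT exp2. In WT day 4 exp1, 15 of 17 EOi cells were at E7.25 and 0 were past it, with a mean of 7.22. The Eomes-KD mean was above that of WT in 3 of 3 tested pairs of the same day and experiment. The untested pair, day 4 in exp1, went the same way. The difference of 0.0718 days missed the threshold (two-sided exact permutation test within days, p = 0.333, smallest possible p 0.0556 with 7 libraries). At day 4 this test, like the other permutation tests on 7 libraries, set both Eomes-KD libraries against WT exp2 alone. The share of E7.0 was 24.4% and 8.88% in Eomes-KD and 37.7% and 15.3% in WT at day 3.5. At day 4, E7.75 held 9.68% and 16.6% of EOi cells in Eomes-KD exp1 and exp2 and 5.41% in WT exp2, and E8.0 held 12.9% and 18.05% in Eomes-KD and 10.8% in WT exp2. At day 3.5 neither stage held more than 1.87% in a library.

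**Figure D4:**
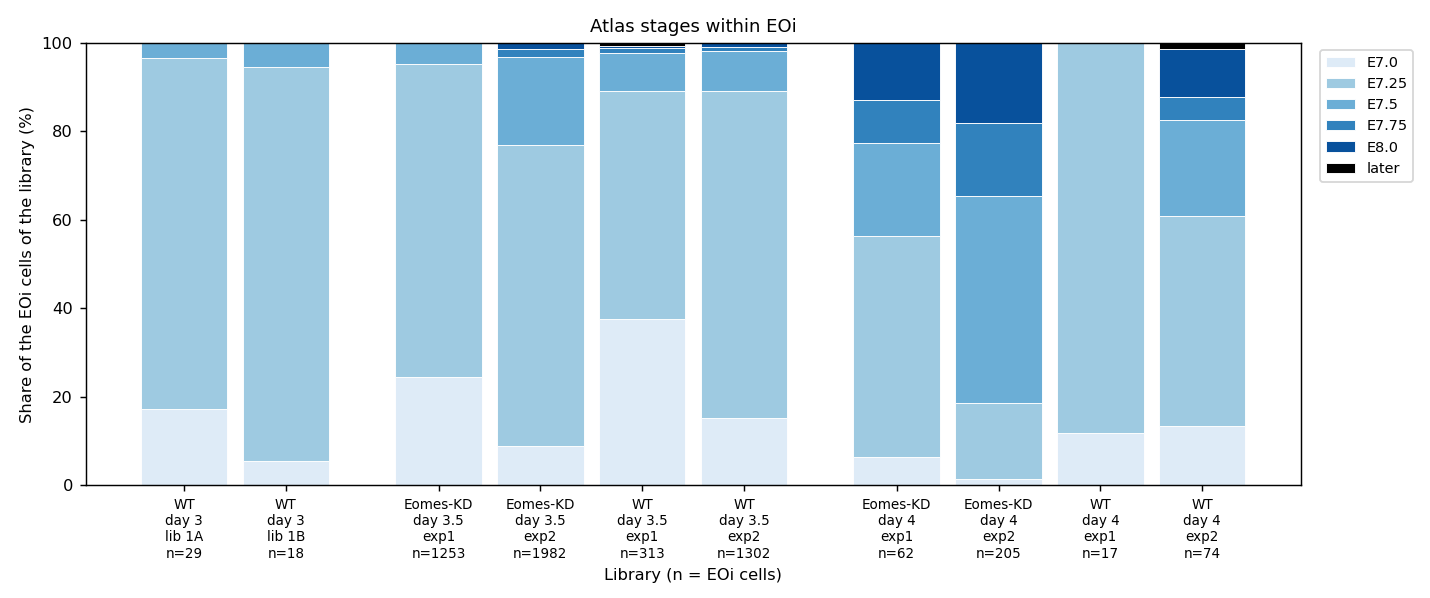
Atlas stages of EOi cells in the libraries of days 3 to 4, as a percent of the EOi cells of each library, with the number of EOi cells under each bar. E7.25 takes up most of each bar at days 3 and 3.5, and E7.0 is larger in exp1 (24.4% in Eomes-KD and 37.7% in WT) than in exp2 (8.88% and 15.3%) at day 3.5.

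Labels and stages were transferred to each library separately, and many EOi cells shared a nearest atlas cell. The 5266 cells had 832 distinct nearest atlas cells, and 4 of these were the nearest to 1264 EOi cells (24.0%). The most frequent, nearest to 483 cells, took 11.9% and 15.6% of the EOi cells in Eomes-KD exp1 and exp2 at day 3.5, against 2.88% and 0.845% in WT. The second took 13.1% in Eomes-KD exp2 and 0.0798% in exp1, against 2.07% in WT exp2 and 0.319% in exp1. At day 4 the most frequent was nearest to 0 of 62 and 3 of 205 EOi cells in Eomes-KD exp1 and exp2 and to 1 of 74 in WT exp2. The part of shared nearest cells in the spread between libraries was not tested.

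RNA depth of EOi cells moved with the condition at day 3.5. The median RNA count per EOi cell was 22510 and 13306.5 in Eomes-KD exp1 and exp2, against 18481 and 8117.5 in WT. At day 4 WT had the higher value in both experiments, with 20399 in exp1 (17 cells) and 12102.5 in exp2. The Eomes-KD values of day 4 were 18540 and 10831. All annotated cells of those day 3.5 libraries had medians of 22168 and 12983 in Eomes-KD and 17372 and 8207 in WT. EOi cells were most of the Eomes-KD cells, so the Eomes-KD medians are not independent of EOi. Minus the median of the library's other cells, the EOi median was 1919 and 1134.5 in Eomes-KD and 1221 and -108.5 in WT. At day 4 that difference was -263 and 311 in Eomes-KD and 855.5 in WT exp2. Among the more deeply read cells of each library, as defined above, the EOi share over days was still called higher in Eomes-KD. That cut uses each library's own median and so does not make depth equal between the conditions. The part of depth in the EOi share was not tested. Genes detected per EOi cell followed the counts, with medians of 5742 and 4632 in Eomes-KD and 5221 and 3456 in WT at day 3.5. The median doublet score was 0.30 and 0.22 in Eomes-KD and 0.26 and 0.17 in WT on that day.

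Label scores, which give how many of a cell's nearest atlas cells hold its label as a fraction, went opposite ways in the experiments: the median atlas label score of EOi cells was 0.72 in Eomes-KD exp1 and 0.56 in WT exp1, but 0.60 in Eomes-KD exp2 and 0.72 in WT exp2 at day 3.5. Mitochondrial percent was lower in Eomes-KD at day 3.5 (7.99% and 6.22%, against 8.89% and 8.19% in WT). At day 4 it was not lower in exp1 (8.805%, against 7.52% in 17 WT cells) or in exp2 (6.88%, against 5.41% in WT). Ribosomal percent was 10.1% and 8.26% in Eomes-KD and 11.1% and 8.49% in WT at day 3.5. None of the 8 measures per EOi cell passed the threshold (exact permutation tests within days, adjusted p = 0.944 for each), which the 7 libraries could not have reached.

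On the UMAP, WT EOi cells lay between primitive streak and the later types, with their median 3.86 units from that of primitive streak, 2.35 from EOd and 5.56 from posterior mesoderm, the mesoderm type that the study places before allantois precursors. At day 3.5 the median of EOi cells was 5.07 and 4.63 units from WT primitive streak in Eomes-KD exp1 and exp2, against 4.24 and 3.78 in WT. The distance to WT posterior mesoderm was 4.31 and 4.75 in Eomes-KD and 5.16 and 5.67 in WT, so that both Eomes-KD libraries lay farther from streak than the WT libraries. The pair of day 4 in exp1 went the same way, with 5.94 units from primitive streak in Eomes-KD and 5.04 in WT (17 cells), and 3.47 from posterior mesoderm in Eomes-KD and 4.40 in WT. In the remaining pair, day 4 in exp2, the order was the other way, with 6.59 units from primitive streak in Eomes-KD and 7.10 in WT, and 2.79 from posterior mesoderm in Eomes-KD and 2.29 in WT. None of the 5 measures of position passed the threshold (exact permutation tests within days, unadjusted p from 0.444 to 1). The 7 libraries tested could not have reached it, as the smallest possible p was 0.0556. UMAP units have no physical meaning and describe this map only.

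**Figure D5:**
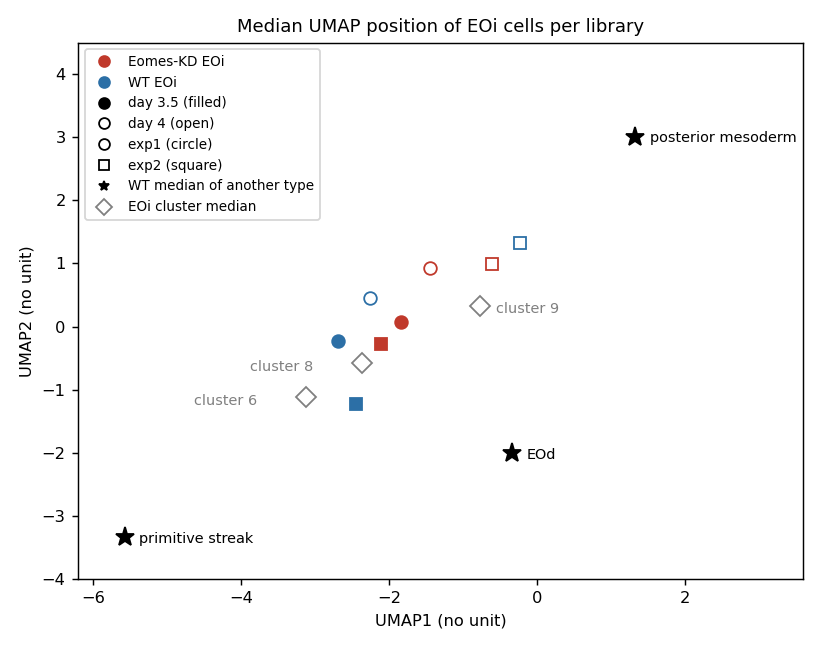
Median UMAP position (no unit) of EOi cells in each library of days 3.5 (filled) and 4 (open) with 10 or more EOi cells; circles are exp1, squares exp2, stars the WT medians of other types and diamonds the medians of the EOi clusters. At day 3.5 the Eomes-KD points lie 5.07 and 4.63 units from primitive streak and the WT points 4.24 and 3.78.

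Set beside its neighbours in the same libraries, EOi had lower label scores than EOd. In the day 3.5 libraries the median atlas label score was 0.72 and 0.60 for EOi in Eomes-KD and 0.56 and 0.72 for EOi in WT, against 0.92 and 0.84 for EOd in Eomes-KD and 0.84 and 0.84 for EOd in WT. Posterior mesoderm was not above EOi, with 0.60 and 0.60 in Eomes-KD and 0.56 in WT exp2. Primitive streak had 0.76 and 0.72 in Eomes-KD and 0.76 and 0.68 in WT, the last below EOi. Nascent mesoderm labels were also less frequent in EOi (48.9% to 54.5% in Eomes-KD and 41.5% to 69.4% in WT) than in EOd (77.3% to 90.7% in Eomes-KD and 73.7% to 77.0% in WT) of day 3.5. Primitive streak labels were 3.46% to 11.5% of EOi in these libraries, but 53.7% to 79.1% of primitive streak cells. ExE mesoderm labels were 24.2% to 37.8% of EOi cells of day 4 and 46.2% to 77.3% of posterior mesoderm cells of that day, in libraries with 20 or more cells of the type. These types were clustered on the same cells, so the differences are given with no test.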

How the data were processed

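The members and lists were chosen with earlier results of these data known. Per the study's methods, the authors aligned reads with Cell Ranger ARC 2.0.1 (build mm10), filtered cells on quality, removed doublets with scds, joined RNA and chromatin with MOFA+ and clustered the cells; PGCs were taken from label transfer. The counts in the deposited table are RNA counts and genes per cell, not normalized. Mitochondrial and ribosomal percent, the doublet score, UMAP coordinates (a score without a unit) and label scores (a fraction in steps of 1 of 25 neighbours) were computed by the authors. Groups came from the labels, and library names placed all cells.

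Numbers of cells per type, label or cluster in each library entered edgeR 4.0.16 (R 4.3.3, quasi-likelihood, no abundance trend, features with 10 or more cells, Benjamini-Hochberg, threshold 0.05), with DESeq2 1.42.0 and limma 3.58.1 as alternatives. The SE given with an edgeR log2 change was derived from the test, as the size of the change divided by the square root of its F statistic. The lone libraries of days 4.5 and 5 are assumed to vary like the others. Single values per library (20 or more EOi cells) entered two-sided exact permutation tests within days (Python 3.11.15, scipy 1.17.1). Both tests were run on simulated data. For edgeR each cell type was drawn independently there, so a share that falls because another type grows was not covered. Labels, stages and clusters with 5% of the EOi cells of such a library, or passing the test, were named. Limits for a count of 0 take 3 cells as the floor. The experiment number pairs libraries by label, and deviations from group means in log2 shares correlated at 0.504 (day 3.5, 8 types) and 0.747 (day 4, 11 types).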

Additional observations from a re-analysis of the deposited data

How the results depend on the processing

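The EOi share over days kept its call with TMM factors, DESeq2, no filter on low counts and the replicate block. It also kept the call for days 3.5 and 4 alone, in cells above the median RNA count and with each library left out (1.87 to 2.32). The call was lost with limma on arcsine square root shares (0.25 on that scale). It was also lost with EOd, HE precursors, HE and blood progenitors left out of the total (0.89, log2). By day, day 3.5 gained the call with DESeq2 (2.21, adjusted p = 0.0361), the replicate block (2.24), p-values adjusted within each day (2.21) and without 1 of 6 libraries of days 4, 4.5 and 5 (2.003 to 2.46 over all left out), and day 4 with the replicate block (1.57). The block also ended the call of cluster 9, whose log2 change stayed at 0.84, and changed no other call of the results recomputed with it. Both WT steps kept their calls under the alternatives run, with 3.59 to 4.05 and -3.69 to -2.54 when a library was left out, and day 4 by day ran from 1.09 to 2.25. Clusters called within EOi numbered 2, and 0 in cells above the median RNA count, 1 with the replicate block and 0 to 2 with a library left out. Atlas labels called numbered 0 to 1 with a library left out.

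Some differences that missed the threshold changed sign, and the cause was not tested. Among atlas labels this held for primitive streak at a label score of 0.5 or more (0.10), ExE mesoderm in cells above the median RNA count (-0.023), nascent mesoderm with 10 or more EOi cells (-0.35), and intermediate mesoderm (-0.21), nascent mesoderm (-0.10) and primitive streak (0.19) at day 3.5 only. With a library left out, log2 changes ran from -0.58 to 0.61 for ExE, -0.90 to 1.31 for intermediate, -0.053 to 0.27 for mixed and -0.13 to 0.49 for nascent mesoderm, -0.68 to 0.42 for primitive streak and -1.95 to -0.62 for surface ectoderm. Among extended labels it held for lateral plate mesoderm with TMM factors (-0.11), primitive streak at a label score of 0.5 or more (0.15), nascent mesoderm in cells above the median RNA count (0.50), and intermediate mesoderm (-0.32) and primitive streak (0.22) at day 3.5 only. With a library left out these ran from -0.50 to 1.30 for intermediate, -0.0060 to 1.04 for lateral plate and -0.50 to 0.14 for nascent mesoderm, and -0.68 to 0.42 for primitive streak. Cluster 8 had -0.093 with 10 or more EOi cells, -0.21 at day 3.5 only and -0.21 to 0.25 with a library left out.

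The share of the most frequent stage was 3.45 points lower in Eomes-KD (-3.45, exact permutation p = 0.833), where the mean stage was later. The atlas label score differed by 0.00531 as a mean per library. After subtracting the other cells of the library it differed by 0.01. Genes then differed by -7.25 (581 unsubtracted) and mitochondrial percent by -0.00375 (0.5 unsubtracted). With 10 or more EOi cells mitochondrial percent differed by -0.0275 and the extended label score by -0.02. With a library left out, the ranges were -1.43 to 0.981 for mitochondrial percent, -0.793 to 0.583 for ribosomal percent, -0.05 to 0.03 for the atlas label score and -0.04 to 0.06 for the extended label score. UMAP1 differed by 0.105 with the replicate block, and by -0.312 to 0.598 with a library left out, UMAP2 by -0.115 to 0.632, and the distances to primitive streak by -0.160 to 0.841, to EOd by -0.343 to 0.00894 and to posterior mesoderm by -0.887 to 0.146. Days 4.5 and 5 hold too few EOi cells, and 1 library a condition, for their makeup to be compared. Atlas labels with no filter on low counts could not be fitted. PGCs put back, day 3.5 only, 10 or more EOi cells and shared barcodes left out were alternatives added after the data were seen.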
